A study of Mus musculus with 6 samples.

Results

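The transcripts of the mitochondrial genome were described in articular cartilage of young and aged mice. They were chosen by name, as every row of the deposited gene table whose symbol starts with mt-, and this gave 37 of 33971 rows: 13 mRNAs, 2 rRNAs and 22 tRNAs. The study sequenced RNA from articular cartilage of WT mice aged 2 months and 18 months, with 3 libraries at each age and no further treatment or allele in either group. The methods describe the mice as male, and neither the labels nor the methods say whether a library held tissue from 1 mouse or from several, so p-values measure the spread between these libraries, which may be technical. The question put to the data was how the counts of each library were divided among the transcript classes and the respiratory complexes, and whether this division differed between the ages.

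The mitochondrial genome is a small circular DNA that is copied into long transcripts from both strands. Its tRNA genes lie between most of the rRNA and mRNA genes, and cutting the long transcripts at the tRNAs releases the single RNAs. The mRNAs encode core subunits of respiratory complexes I, III, IV and V, and all other subunits of these complexes, the whole of complex II and the factors that make, cut and degrade the RNA come from nuclear genes. Most mitochondrial mRNAs carry a poly(A) tail, mitochondrial rRNAs carry a short one, and mature tRNAs carry none, so the capture of poly(A) RNA that was used here sees the classes unequally. Levels of rRNAs and tRNAs are therefore those of the captured RNA only. In tissue RNA, fewer cells of a type and less RNA per cell cannot be told apart.

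The libraries held 48171507 to 59085179 counts. Xist, made from the inactive X chromosome of female cells, ranged from 88239 to 102417 counts at 2 months and from 11 to 30 at 18 months, and the Y-linked Ddx3y from 0 to 10 against 4333 to 4839. This pattern divides with age and goes against the description of all mice as male for the libraries labelled 2-month. A list of 14 chondrocyte markers took 3.83% to 6.46% of counts at 2 months and 0.0591% to 0.147% at 18 months, and no marker was at 0 in all libraries of an age. The 11 neutrophil markers took 4.09% to 4.42% of counts at 18 months. At 2 months they took 0.366% in replicate 2 against 0.00127% and 0.00578% in replicates 1 and 3. The 9 erythroid markers in the table took 2.70% to 3.57% at 18 months, 0.660% in 2-month replicate 2 and 0.0247% and 0.0697% in the other 2-month libraries. The 12 skeletal muscle markers, whose tissue is rich in mitochondria, took 0.0111% to 0.0197% of counts at 2 months and 0.00111% to 0.00132% at 18 months. Of these markers 2 were at 0 in all 18-month libraries. The 8 proliferation markers took 0.00710% to 0.0803% at 2 months and 0.265% to 0.282% at 18 months, and the 10 osteoblast and osteocyte markers 0.505% to 1.75% and 0.340% to 0.359%. The 8 B lymphocyte markers took at most 0.0279% in any library, and their shares overlapped. Age can therefore not be told apart from the sex pattern or from the cell types in the tissue, and results that depend on 2-month replicate 2 are also given without it.

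The 2 junctions printed here show how closely these genes adjoin. Positions are those of the deposited table, which for all 37 genes are identical to GENCODE M21 (mouse GRCm38), and the sequences come from the GENCODE M21 transcripts. The rRNA genes and the first mRNA gene are separated by nothing but tRNA genes. In the first junction mt-Rnr1 (chrM:70-1024, 12S rRNA of the small ribosomal subunit) runs into mt-Tv (chrM:1025-1093) and then mt-Rnr2 (chrM:1094-2675, 16S rRNA of the large subunit). In the second, mt-Rnr2 runs into mt-Tl1 (chrM:2676-2750) and then mt-Nd1 (chrM:2751-3707). The tRNA is in capitals, with 25 bases of each neighbour in lower case, on the forward strand.
mt-Rnr1/mt-Tv/mt-Rnr2, chrM:1000-1118: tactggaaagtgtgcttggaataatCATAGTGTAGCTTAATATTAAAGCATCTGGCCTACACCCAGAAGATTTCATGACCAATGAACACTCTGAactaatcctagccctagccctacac
mt-Rnr2/mt-Tl1/mt-Nd1, chrM:2651-2775: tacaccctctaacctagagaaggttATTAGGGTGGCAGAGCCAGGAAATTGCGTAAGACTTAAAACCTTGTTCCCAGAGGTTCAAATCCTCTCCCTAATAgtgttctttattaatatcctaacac

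The other sequences are the 4 tRNA genes of the cluster between mt-Nd2 and mt-Co1 that are read from the reverse strand. They are shown because 3 of them were higher in every 18-month library by CPM (counts scaled by the library total), as were 35.6% of all tested genes. Each is printed 5′ to 3′ on its own strand with the anticodon in capitals.
mt-Ta (alanine), chrM:5018-5086, reverse strand: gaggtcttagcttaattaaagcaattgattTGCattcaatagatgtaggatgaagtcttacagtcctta
mt-Tn (asparagine), chrM:5089-5159, reverse strand: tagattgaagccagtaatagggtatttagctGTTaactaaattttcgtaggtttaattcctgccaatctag
mt-Tc (cysteine), chrM:5192-5257, reverse strand: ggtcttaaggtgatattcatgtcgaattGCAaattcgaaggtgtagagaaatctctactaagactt
mt-Ty (tyrosine), chrM:5260-5326, reverse strand: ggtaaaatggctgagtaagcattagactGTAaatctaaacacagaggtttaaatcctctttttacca

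Mitochondrial genes took a few percent of all counts, nearly all of it mRNA, and the total did not separate the ages. The 37 genes held 1.83%, 2.69% and 2.29% of counts in 2-month replicates 1, 2 and 3, and 2.19%, 2.50% and 2.43% in 18-month replicates 1, 2 and 3. The means were 2.27% ± 0.432 and 2.37% ± 0.162 (SD, n = 3 each), and the 18-month values lay within the range of the 2-month values (two-sided exact permutation test, p = 0.8, where 3 libraries against 3 can give no value below 0.1). The 13 mRNAs alone held 1.79%, 2.65% and 2.25% at 2 months and 2.07%, 2.37% and 2.30% at 18 months (exact permutation test, p = 1.0). The lowest and the highest share were both in 2-month libraries, replicates 1 and 2. Counting error was small beside this: for the lowest total the 95% Wilson interval was 1.828% to 1.835%, which covers counting error only.

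The rRNAs were the class that separated the ages. mt-Rnr1 and mt-Rnr2 together held 0.0367%, 0.0401% and 0.0348% of counts at 2 months and 0.114%, 0.121% and 0.122% at 18 months. All 18-month libraries were above all 2-month libraries, and the mean rose 3.20-fold from 0.0372% ± 0.00266 to 0.119% ± 0.00441 (SD, n = 3 each, exact permutation test, p = 0.1, the smallest value possible). By CPM, 35.6% of all genes tested were also higher in every 18-month library. The tRNAs held 0.00524%, 0.00716% and 0.00667% at 2 months against 0.00635%, 0.00758% and 0.00756% at 18 months, and these overlapped (exact permutation test, p = 0.3). Of the mitochondrial counts themselves, mRNAs took 97.7% to 98.3% at 2 months and 94.5% to 94.9% at 18 months, and rRNAs took 1.49% to 2.01% and 4.84% to 5.22%.

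By respiratory complex, no mRNA group separated the ages as a share of all counts. The 3 mRNAs of complex IV, the cytochrome c oxidase that passes electrons to oxygen, took the most, with 0.909%, 1.28% and 1.13% at 2 months and 1.12%, 1.26% and 1.23% at 18 months. The 7 mRNAs of complex I, the NADH dehydrogenase that is the largest entry point of electrons, took 0.492%, 0.799% and 0.637% at 2 months and 0.556%, 0.643% and 0.626% at 18 months. For both complexes the 18-month values lay inside the 2-month range. The single mRNA of complex III, mt-Cytb (chrM:14145-15288, cytochrome b), took 0.234%, 0.349% and 0.299% at 2 months and 0.218%, 0.246% and 0.237% at 18 months. Its ranges overlapped through 2-month replicate 1 alone. The 2 mRNAs of complex V, the ATP synthase, took 0.154%, 0.219% and 0.189% at 2 months and 0.174%, 0.220% and 0.209% at 18 months. With the counts of near-identical copies on chromosome 1 (described below) added, complex V took 0.283%, 0.399% and 0.344% at 2 months and 0.318%, 0.401% and 0.381% at 18 months, 1.82 to 1.83 times as much and above complex III in every library. The shares of complexes I and IV changed by 1.14 to 1.39 times, and all still overlapped. As deposited, the exact permutation test gave p = 0.7 for complex IV, 0.8 for I, 0.3 for III and 0.6 for V.

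**Figure D1:**
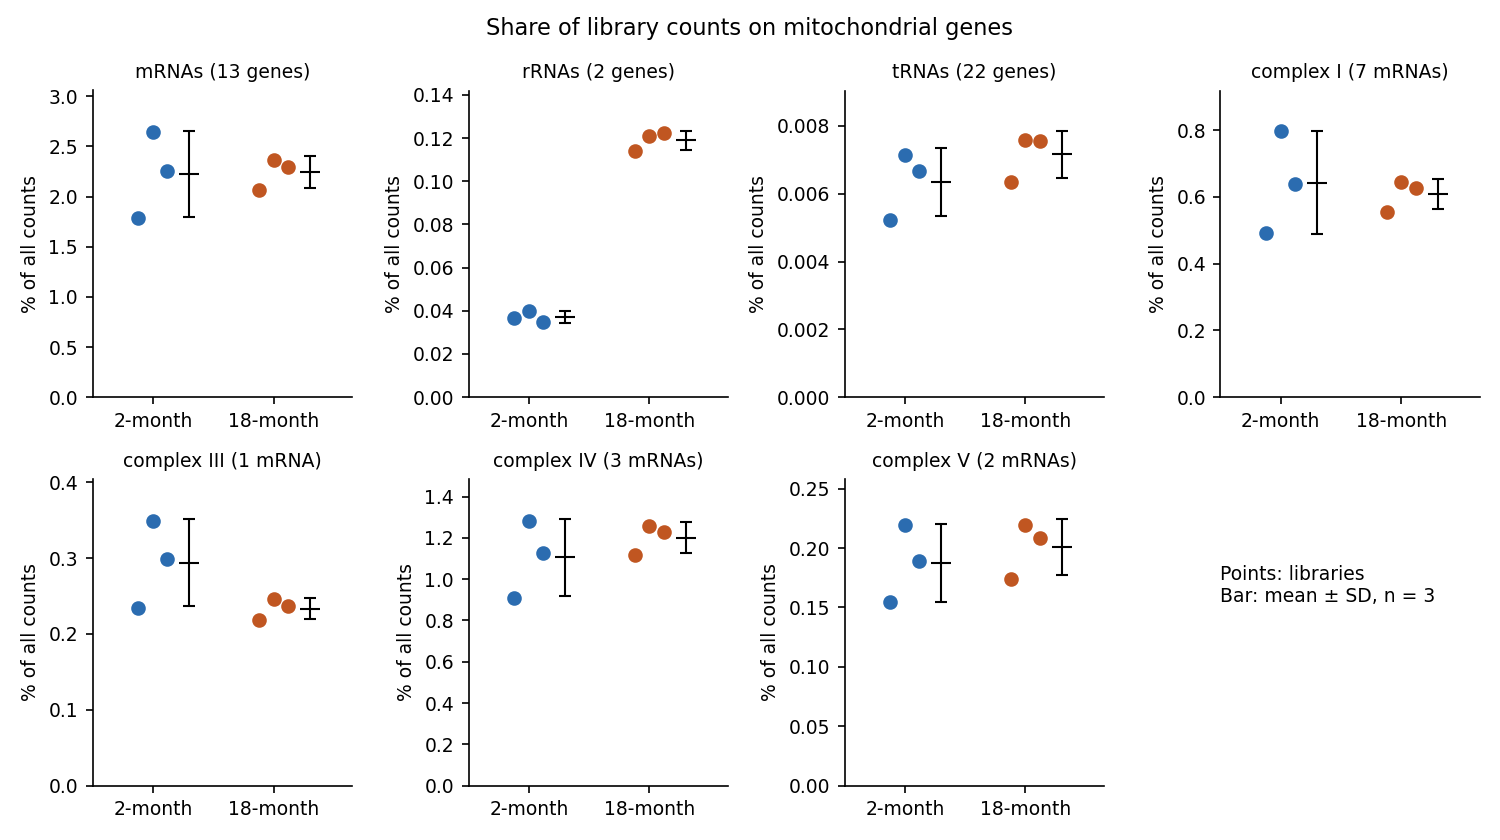
Share of all counts of a library, in percent, held by mitochondrial mRNAs, rRNAs and tRNAs and by the mRNAs of each respiratory complex, with 1 point per library (blue, 2-month; orange, 18-month) and a bar for mean ± SD (n = 3). The rRNA panel is the only one without overlap between the ages, from 0.0348% to 0.0401% at 2 months and from 0.114% to 0.122% at 18 months.

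Gene by gene, 34 of the 37 genes had enough counts for the quasi-likelihood test of edgeR, which covered 20397 genes in all, and mt-Tf, mt-Tv and mt-Td, with 0 to 16 counts a library, had not. A gene was called at a Benjamini-Hochberg adjusted p-value below 0.05 and a log2 fold change (18-month against 2-month) beyond 1 in either direction. Called were 2 of the 34, both higher and 0 lower, beside 36.3% of all genes tested (14.9% higher and 21.3% lower). Leaving out the limit on fold change, 5 of the 34 had an adjusted p-value below 0.05, all of them higher. Beside them stood 51.3% of all genes (23.4% higher and 27.9% lower). An unadjusted p-value below 0.05 in edgeR was reached by 6 of the 34, beside 12025 of all 20397 genes tested. CPM, the counts scaled by the library total, did not overlap between the ages for 7 genes that were higher and 4 that were lower at 18 months, and 68.5% of all genes did not overlap (35.6% higher and 32.9% lower). The shares past each limit were lower among mitochondrial genes than among all genes. Median log2 fold changes were −0.10 for the 13 mRNAs, 1.60 for the 2 rRNAs and 0.02 for the 19 tested tRNAs, and −0.02 over all genes tested.

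The 2 called genes were the rRNAs. mt-Rnr1 had 7367, 7307 and 6657 counts at 2 months and 23521, 26631 and 26994 at 18 months. mt-Rnr2 had 10390, 13404 and 10114 counts at 2 months and 43865, 40044 and 41151 at 18 months. Neither overlapped between the ages. In log2 terms mt-Rnr1 rose by 1.59 (standard error 0.15, edgeR adjusted p = 0.00138). For mt-Rnr2 the rise was 1.62 (standard error 0.13, edgeR adjusted p = 0.00101). Both were called under all 18 alternatives, from 1.23 to 1.70 for mt-Rnr1 and from 1.27 to 1.71 for mt-Rnr2. The ratio of mt-Rnr2 to mt-Rnr1 counts, which come from one transcription unit, was 1.41, 1.83 and 1.52 at 2 months and 1.87, 1.50 and 1.52 at 18 months, and overlapped (exact permutation test, p = 0.6).

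Per 100 mitochondrial mRNA counts, the rRNAs had 2.05, 1.51 and 1.55 counts at 2 months and 5.52, 5.10 and 5.33 at 18 months. This ratio does not depend on the scaling between libraries. It did not overlap between the ages, with a log2 difference of 1.66 (exact permutation test, p = 0.1, Benjamini-Hochberg adjusted p = 0.189 over 17 ratios within the mitochondrial genome). Taken singly per mitochondrial mRNA count, 33.1% of all 20397 tested genes were also higher in every 18-month library. Other structural RNAs did not separate the ages. CT010467.1, a row on chromosome 17 with cytoplasmic rRNA sequence, held 4.31%, 0.339% and 2.11% of counts at 2 months and 0.705%, 5.20% and 5.19% at 18 months. It was lowest in 2-month replicate 2 and 18-month replicate 1, and the ages overlapped. Rn7sk, a nuclear RNA without a poly(A) tail, had 2908, 137 and 1313 counts at 2 months and 395, 1408 and 1442 at 18 months, which overlapped too. The part of the poly(A) capture in the rRNA values was not tested. The marker lists of neutrophils and erythroid cells moved with age in the same direction as the rRNAs, and their part in this result was not tested. None of the 11 neutrophil markers and 3 of the 9 erythroid markers passed the test. 2-month replicate 2, with the highest neutrophil and erythroid shares of its age, had the highest rRNA share of all counts (0.0401%) and the lowest number of rRNA counts per 100 mRNA counts (1.51) among the 2-month libraries.

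None of the 13 mRNAs had an unadjusted p-value below 0.05 or CPM ranges that did not overlap. The largest positive value was that of mt-Nd1 (complex I), with 1216, 1824 and 1485 CPM at 2 months and 1566, 1877 and 1841 CPM at 18 months, a log2 fold change of 0.16 (standard error 0.21). The largest negative values were −0.43 for mt-Nd4l (standard error 0.24) and −0.40 for mt-Cytb (standard error 0.22). mt-Nd4l had 144, 297 and 213 CPM at 2 months and 159, 180 and 166 CPM at 18 months. mt-Cytb had 2341, 3488 and 2992 CPM at 2 months and 2183, 2457 and 2366 CPM at 18 months. For mt-Cytb the means were 2940 ± 575 and 2335 ± 139 CPM (SD, n = 3 each). In each case the 2-month libraries spread more widely than the 18-month ones. The value of mt-Nd4l was −0.16 without 2-month replicate 2 (edgeR adjusted p = 0.489) and −0.63 without 2-month replicate 1 (edgeR adjusted p = 0.0378), the latter short of the limit on the fold change. That of mt-Cytb ran from −0.51 to −0.27 when each library was left out in turn, and from −0.75 to −0.27 over all alternatives. Over the edgeR, DESeq2 and limma alternatives the lowest adjusted p was 0.0359 for mt-Cytb and 0.0468 for mt-Nd3. The value of mt-Nd3 went no lower than −0.47, so neither gene was past the limit on the fold change. The 3 mRNAs of complex IV, mt-Co1 (0.05), mt-Co2 (0.07) and mt-Co3 (0.06), and both of complex V, mt-Atp8 (0.02) and mt-Atp6 (0.04), had log2 fold changes near 0. The other complex I mRNAs lay between −0.30 and −0.10, in mt-Nd2 (−0.10), mt-Nd3 (−0.11), mt-Nd4 (−0.30), mt-Nd5 (−0.30) and mt-Nd6 (−0.12). Adjusted p-values of the mRNAs in the main edgeR test ran from 0.177 to 0.921. The sign of their median was not stable: it turned to 0.11 when 2-month replicate 2 was left out, to 0.0034 when 18-month replicate 1 was, and to 0.0013 in limma on log2(FPKM) with either pseudocount.

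**Figure D2:**
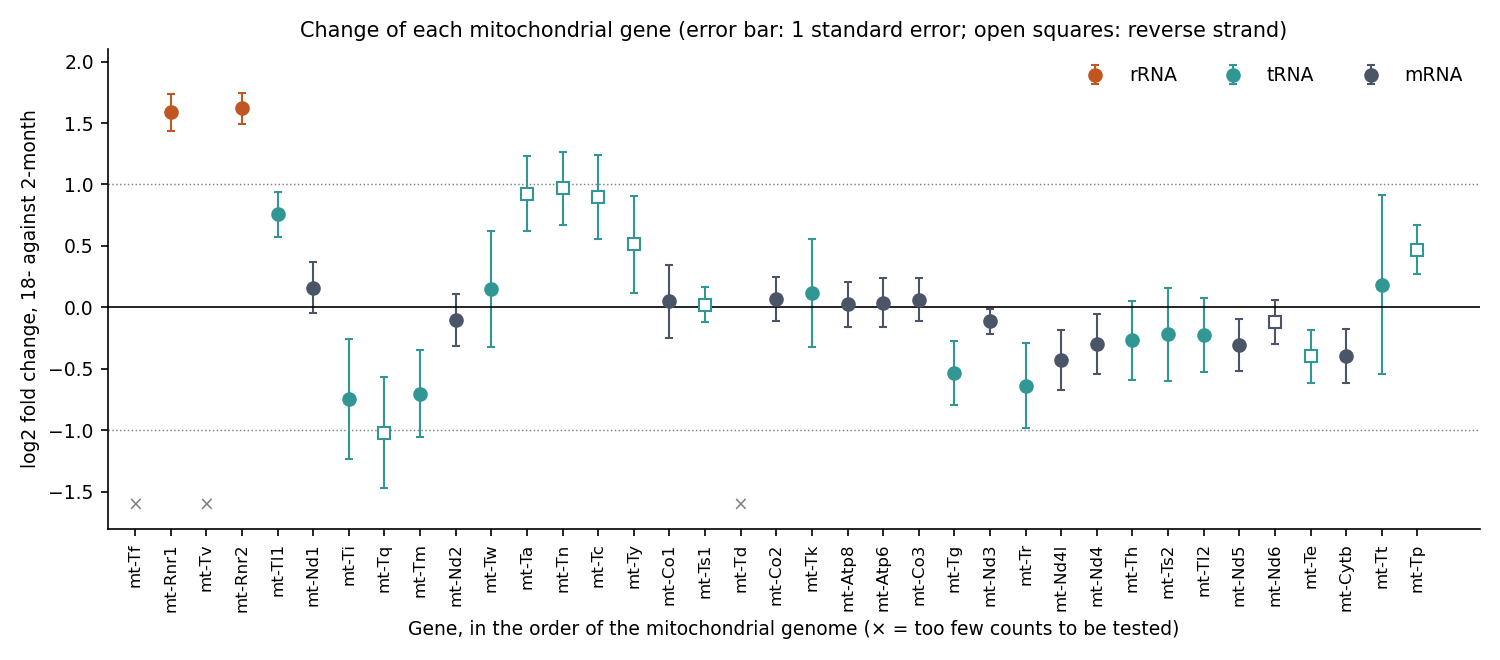
Log2 fold change of each mitochondrial gene (18- against 2-month, error bars 1 standard error) in the order of the genome, with rRNAs in orange, tRNAs in teal and mRNAs in grey, open squares for reverse-strand genes and dotted lines at 1 and −1. The rRNAs stand at 1.59 and 1.62, mt-Ta, mt-Tn and mt-Tc between 0.90 and 0.97, and the mRNAs between −0.43 and 0.16.

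The division of the mRNA counts among the 13 genes was compared next. Each mRNA was taken as a percentage of the counts of all 13, which removes the scaling between libraries. mt-Cytb took 13.1%, 13.2% and 13.3% at 2 months and 10.6%, 10.4% and 10.3% at 18 months. This was the widest gap relative to the spread, 13.2% ± 0.104 against 10.4% ± 0.139 (SD, n = 3 each). mt-Nd5 (chrM:11742-13565, complex I) took 7.00%, 7.43% and 7.32% at 2 months and 6.02%, 6.11% and 6.22% at 18 months. mt-Nd4 (chrM:10167-11544) took 6.66%, 7.97% and 7.20% against 5.94%, 6.35% and 6.30%. mt-Nd4l (chrM:9877-10173) took 0.803%, 1.12% and 0.945% against 0.771%, 0.759% and 0.723%. All 4 were lower in every 18-month library than in every 2-month library.

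Higher in every 18-month library were mt-Nd1, mt-Co1 and mt-Atp8. mt-Nd1 took 6.79%, 6.89% and 6.59% at 2 months and 7.58%, 7.93% and 8.02% at 18 months. mt-Co1 (chrM:5328-6872), the catalytic subunit of complex IV and the most abundant mRNA, took 34.8%, 34.5% and 35.4% against 37.7%, 37.3% and 37.6%. mt-Atp8 (chrM:7766-7969) took 1.75%, 1.84% and 1.81% against 1.85%, 1.95% and 1.92%, a narrow gap. The other 6 mRNAs overlapped, and among them mt-Nd6, the only mRNA of the reverse strand, took 1.98%, 1.93% and 1.93% against 1.71%, 1.95% and 1.89%. A share among 13 rises when another falls, so the 7 are not separate results. Each had an exact permutation p of 0.1 and an adjusted p of 0.189 over 17 ratios, which does not pass the threshold. Measured per mitochondrial mRNA count, 62.4% of all 20397 tested genes did not overlap between the ages (33.1% higher, 29.3% lower), so the 7 of 13 mRNAs are near the background in number.

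The mRNAs that took a lower share lie together at the far end of the forward strand. The genes from mt-Nd4l to mt-Cytb, with mt-Nd5 between them, are the last of the 12 mRNA genes in the direction of forward transcription, and mt-Nd1 is the first. Over these 12 genes the log2 fold change and the position of the gene had a Pearson r of −0.77 and a Spearman rho of −0.79. This is a description across genes, which share libraries and neighbouring reads and are not independent. The ratio of mt-Nd1 to mt-Cytb counts was 0.520, 0.523 and 0.496 at 2 months and 0.717, 0.764 and 0.778 at 18 months. mt-Nd2, the second gene, had a lower value (−0.10) than the 5 mRNA genes that follow it (0.02 to 0.07).

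**Figure D3:**
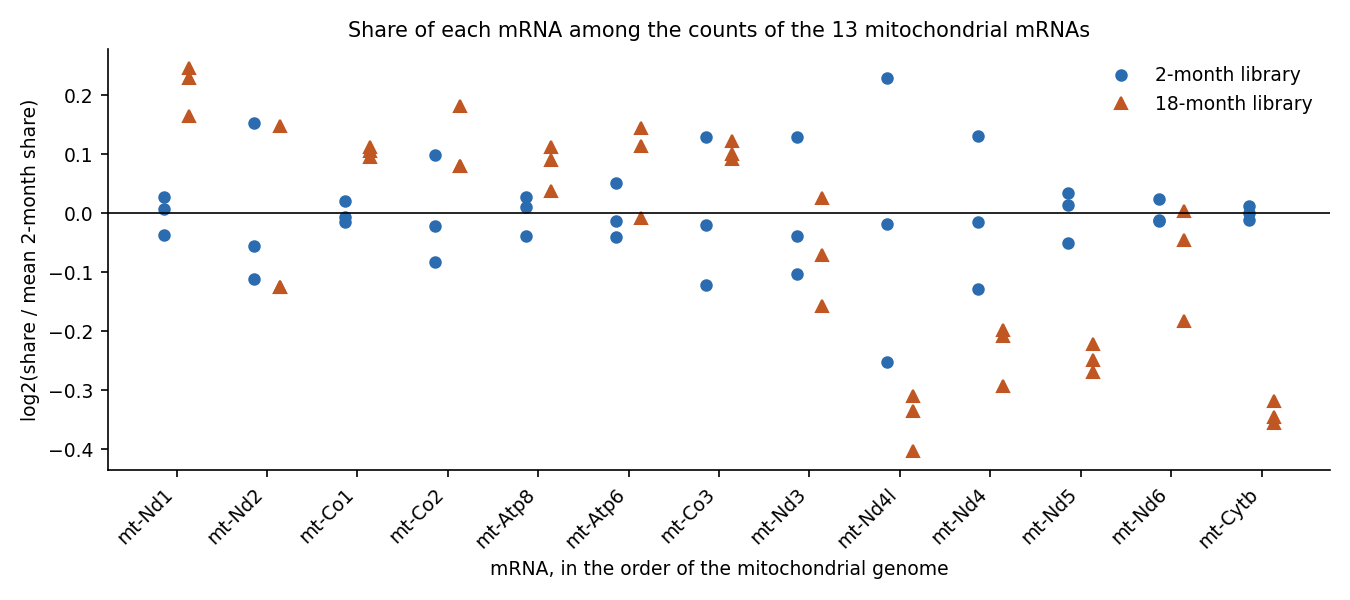
Share of each mRNA among the counts of all 13, as the log2 ratio to its mean 2-month share, in genome order, with 1 point per library (blue circles, 2-month; orange triangles, 18-month). The triangles lie above all circles for mt-Nd1, mt-Co1 and mt-Atp8 and below all circles for mt-Nd4l, mt-Nd4, mt-Nd5 and mt-Cytb.

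A stretch of chromosome 1 carried counts nearly equal to those of several mitochondrial mRNAs. On GRCm38, between its positions 24611535 and 24616197, lie 7 annotated copies of mitochondrial genes that match them at 99.7% to 100% of bases. Together they carried counts equal to 29.6% ± 1.04 of the mitochondrial counts at 2 months and 29.5% ± 0.238 at 18 months (SD, n = 3 each). Gm10925, the copy of mt-Atp6, had 62173, 92847 and 74809 counts at 2 months where mt-Atp6 had 59460, 88206 and 71263. At 18 months the copy had 84609, 99970 and 96104 counts and mt-Atp6 80454, 95757 and 91787. In each library the copies of mt-Atp6, mt-Co2, mt-Co3, mt-Nd3 and mt-Nd4l had 95.1% to 105% of the counts of their mitochondrial gene. Gm28439, which matches 876 bases of mt-Nd4, had 38.5% to 41.8%, and Gm29216, which matches 483 bases of mt-Co1, had 10.4% to 11.95%. RNA made from the copies and mitochondrial RNA placed on them cannot be told apart in counts. mt-Atp8 and several tRNA genes lie inside the same stretch without an annotated copy. The other 7 copies found, on other chromosomes, had 0 to 505 counts a library.

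**Figure D4:**
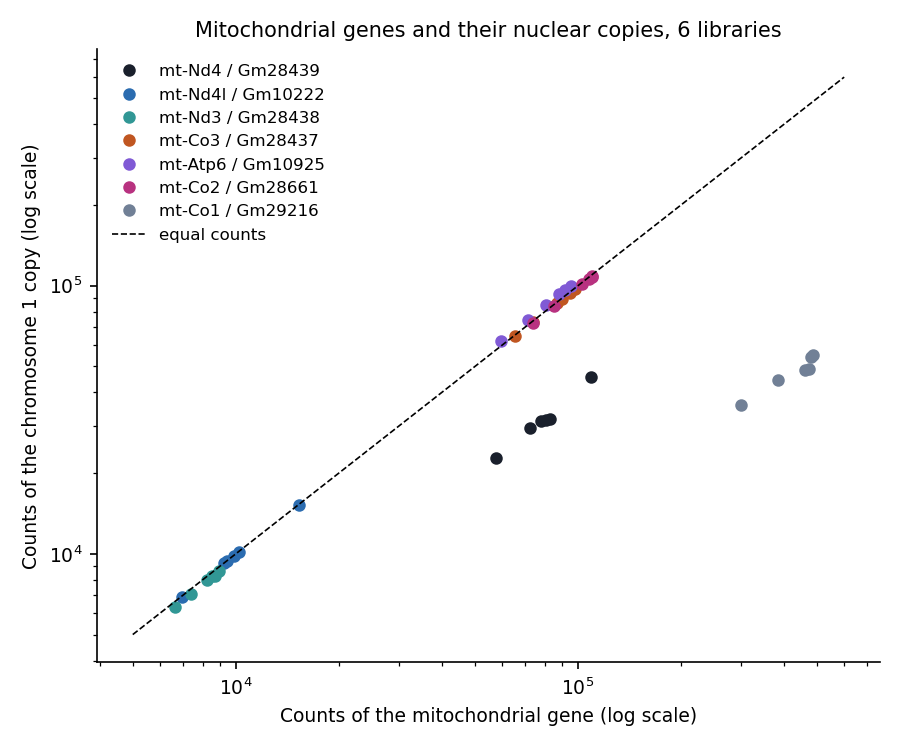
Counts of 7 mitochondrial mRNA genes (x axis, log scale) against counts of their copies on chromosome 1 (y axis, log scale), with 6 points per gene, 1 for each library, and a dashed line for equal counts. Copies of mt-Nd4l, mt-Nd3, mt-Co3, mt-Atp6 and mt-Co2 lie on the line, and those of mt-Nd4 and mt-Co1, which match part of the gene, lie below it in every library.

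The copies changed the order of the levels but not the comparison of the ages. Levels are given in FPKM, fragments scaled by transcript length and by the library, with the counts of the copies added, as mean ± SD (n = 3). At 2 months mt-Co1 had 4892 ± 902, mt-Co2 4459 ± 604, mt-Atp6 3872 ± 648 and mt-Co3 3378 ± 371. The ranges of mean ± SD overlapped between neighbours among these 4. Next came mt-Cytb with 2246 ± 446, mt-Atp8 with 1724 ± 376, mt-Nd4 with 1464 ± 429, mt-Nd1 with 1378 ± 286 and mt-Nd4l with 1276 ± 457. Here too the ranges of neighbours overlapped. The genes share the libraries, so these overlaps do not test their order. No copy of mt-Atp8 is annotated, so that its value is as deposited although it lies inside the chromosome 1 stretch, and its place in this order holds only within that limit. The lowest mRNAs were mt-Nd5, mt-Nd3, mt-Nd6 and mt-Nd2, between 714 and 778. The rRNAs had 132 ± 8.18 (mt-Rnr1) and 126 ± 16.5 (mt-Rnr2), below every mRNA. At 18 months the first 4 stood in the same order, from 5304 ± 357 for mt-Co1 to 3706 ± 289 for mt-Co3. mt-Cytb had 1790 ± 105 there and came after mt-Atp8 (1837 ± 173, nothing added), and the rRNAs had 418 ± 44.5 and 408 ± 4.99. As deposited, mt-Atp6 had 1889 ± 313 FPKM at 2 months and mt-Cytb 2246 ± 446, the opposite order to that with the copies added. With the counts of the copies added, the same 2 genes were called, and r with gene position was −0.77.

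The tRNAs had few counts, and of the 19 tested 5 were higher and 4 lower in every 18-month library by CPM. Of all genes tested, 35.6% were higher and 32.9% lower by this measure, so such separation was not particular to the tRNAs. mt-Tl1 (leucine, UUR codons), in the junction of mt-Rnr2 and mt-Nd1 printed above, had 212, 273 and 250 counts at 2 months and 481, 477 and 532 at 18 months. It rose by 0.76 in log2 terms (standard error 0.18, edgeR adjusted p = 0.0174), below the limit on the fold change. At 75 bases it is shorter than a sequenced fragment, so its counts can contain fragments that cross into mt-Rnr2, which rose, or mt-Nd1. mt-Tv, between the rRNAs, had 0 to 6 counts in any library.

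In the reverse-strand cluster whose sequences are given above, mt-Tn had 57, 102 and 81 counts at 2 months and 160, 200 and 198 at 18 months. It rose by 0.97 (standard error 0.30, edgeR adjusted p = 0.0383). mt-Ta had 48, 88 and 66 counts against 132, 159 and 164, and rose by 0.93 (standard error 0.31, edgeR adjusted p = 0.0475). Both missed the limit on the fold change. mt-Tc had 43, 89 and 58 counts against 116, 155 and 147, a log2 fold change of 0.90 that did not pass the test (edgeR adjusted p = 0.0705). mt-Ty had 21, 47 and 33 against 46, 64 and 60 counts, which overlapped in counts and CPM. These 4 genes, of 66 to 71 bases, are also shorter than a sequenced fragment. Their counts can contain fragments of neighbouring genes, and whether the counting used strand is not given in the sources used here. In all 4 the highest 2-month count was in replicate 2, and without that library mt-Ta (1.10), mt-Tn (1.12) and mt-Tc (1.16) were called, so that 5 mitochondrial genes were past both limits. Without it the calls among all genes also rose, to 44.6% of 21489 genes (23.3% higher and 21.3% lower). Without 18-month replicate 1 mt-Tn was called too, at 1.11, and it was past both limits in 7 of 18 alternatives. Over the alternatives the adjusted p-value ran from 0.00262 to 0.118 for mt-Tn, from 0.00529 to 0.137 for mt-Ta and from 2.64e-05 to 0.0711 for mt-Tl1.

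The fifth tRNA that was higher in every 18-month library was mt-Tp (proline, reverse strand, chrM:15356-15422), the last gene of the map. It had 190, 284 and 232 counts at 2 months and 380, 396 and 392 at 18 months, a log2 fold change of 0.47 (standard error 0.20) that did not pass the test. The 4 that were lower in every 18-month library were mt-Tq, mt-Tm, mt-Tg and mt-Tr, and none passed the test. mt-Tq (glutamine, reverse strand) had 16, 17 and 16 counts at 2 months and 11, 12 and 6 at 18 months, a log2 fold change of −1.02 (standard error 0.45). mt-Tm (methionine) had 27, 35 and 35 counts against 29, 24 and 19. mt-Tg (glycine) had 78, 109 and 98 counts against 80, 76 and 80, and mt-Tr (arginine) 44, 68 and 59 against 53, 48 and 31. At such counts the sampling of single reads is a large part of the spread.

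The 2 tRNAs with the highest counts did not separate the ages. mt-Ts1 (serine, UCN codons) had 1127, 1491 and 1358 counts at 2 months and 1471, 1711 and 1649 at 18 months, a log2 fold change of 0.02 (standard error 0.14). It is on the reverse strand and overlaps the end of mt-Co1, whose counts are far higher, and whether the counting used strand is not given in the sources used here. mt-Te (glutamate), between mt-Nd6 and mt-Cytb, had 436, 729 and 573 counts against 458, 547 and 563, a log2 fold change of −0.40 (standard error 0.22). The other 8 tested tRNAs, mt-Ti, mt-Tw, mt-Ty, mt-Tk, mt-Th, mt-Ts2, mt-Tl2 and mt-Tt, had 5 to 107 counts a library. Their CPM overlapped, and their log2 fold changes lay between −0.75 and 0.51. Per 100 mRNA counts all tRNAs together had 0.293, 0.271 and 0.296 counts at 2 months and 0.307, 0.320 and 0.329 at 18 months. These did not overlap (log2 difference 0.16, exact permutation test, p = 0.1, adjusted p = 0.189 over 17 ratios). Of all genes tested, 33.1% were likewise higher in every 18-month library per mitochondrial mRNA count.

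Set against the nuclear genes of the same complexes, mitochondrial mRNAs were fewer at 18 months. The 13 mRNAs had 4.18, 5.90 and 5.55 counts for each count of 83 nuclear subunit genes of complexes I to V at 2 months, and 2.92, 3.41 and 3.29 at 18 months. The ages did not overlap, with a log2 difference of −0.69 (exact permutation test, p = 0.1). Over 10 alternatives the difference ran from −0.84 to −0.59. The nuclear subunits took 0.428%, 0.449% and 0.406% of all counts at 2 months and 0.708%, 0.695% and 0.698% at 18 months, while the share of the mRNAs overlapped. Of all 20397 tested genes, taken singly per mitochondrial mRNA count, 33.1% were also higher in every 18-month library.

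All 4 complexes with mitochondrial subunits showed this. For complex I the ratio was 4.05, 6.67 and 5.63 at 2 months and 3.13, 3.69 and 3.55 at 18 months. For complex III it was 5.61, 7.59 and 7.21 against 2.88, 3.32 and 3.23, the widest gap, with a log2 difference of −1.11. For complex IV it was 11.4, 18.0 and 15.8 against 9.76, 10.6 and 10.4, and for complex V 0.997, 1.25 and 1.27 against 0.598, 0.775 and 0.736. These are ratios of deposited counts. Adding the chromosome 1 copies gave complex V 1.82 to 1.83 times as many mitochondrial counts, so the level of its ratio depends on the copies. No complex overlapped between the ages, with 2-month replicate 1 the closest 2-month library in each. Such separation was common, as 62.4% of single tested genes did not overlap per mitochondrial mRNA count (33.1% higher at 18 months). The log2 differences were −0.63 for complex I, −0.53 for IV and −0.74 for V. The chondrocyte, neutrophil, erythroid, skeletal muscle, osteoblast and proliferation markers given above also separated the ages as shares of counts. None of the neutrophil markers passed the test by itself. The part of these cell types in the ratios was not tested.

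**Figure D5:**
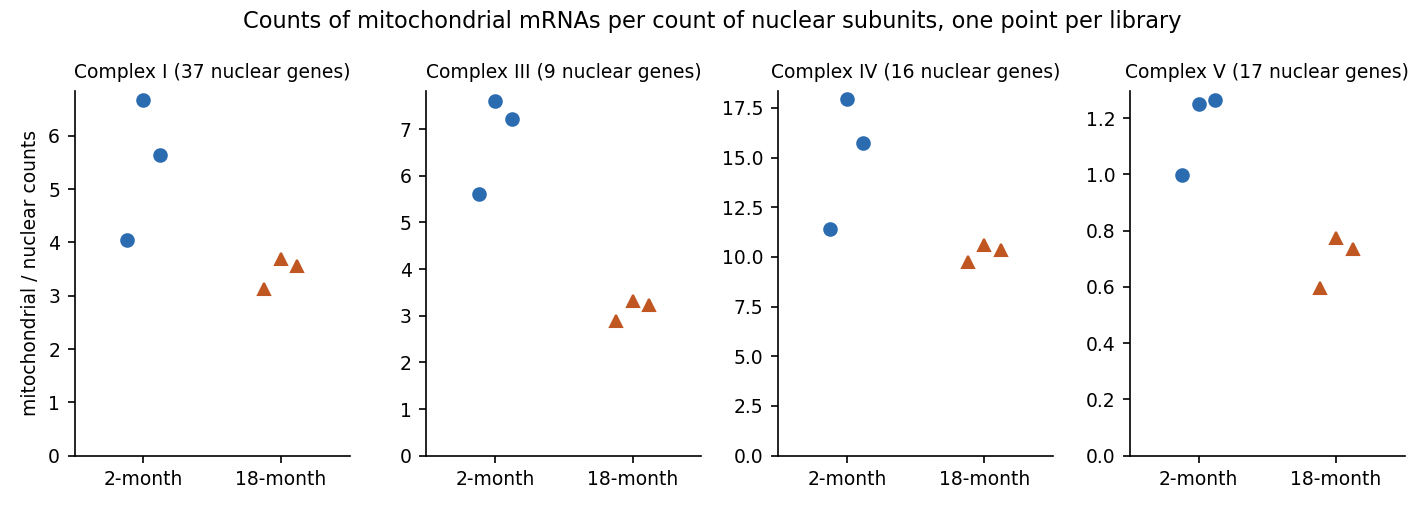
Counts of the mitochondrial mRNAs of a complex for each count of its nuclear subunit genes, by library, with blue circles for 2-month and orange triangles for 18-month. In each of the 4 panels all triangles lie below all circles, most widely for complex III (2.88 to 3.32 against 5.61 to 7.59).

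Of the 83 nuclear subunit genes 82 were tested, of which 13 were called higher and 2 lower, beside 14.9% and 21.3% of all genes. Their median log2 fold change was 0.65, against −0.02 over all genes and −0.10 over the 13 mitochondrial mRNAs. Among the called genes of lowest p, Cox5a of complex IV had 730, 1348 and 757 counts against 4311, 4104 and 4056. Uqcrfs1, the iron-sulfur protein of complex III, had 1453, 2237 and 1242 counts against 4273, 4698 and 4835. Atp5pb, a stalk subunit of complex V, had 4989, 6770 and 4552 counts against 15178, 13843 and 13710. All 3 were higher in every 18-month library, with log2 fold changes of 1.89, 1.24 and 1.13. Of the tissue-specific isoforms of complex IV, Cox4i2 (−4.25) and Cox7a1 (−1.10) fell, and Cox6b2 rose by 3.42, the largest rise among the subunits. These 3 were named after their values had been seen. Without these and other tissue-specific isoforms of complex IV the log2 difference of the mitochondrial to nuclear ratio was −0.72.

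Among the nuclear factors that make and process mitochondrial RNA, some were higher and some lower. Of 42 listed genes, all tested, 1 was called higher and 1 lower, beside 14.9% and 21.3% of all genes, and the median log2 fold change was 0.18. Without the limit on fold change 17 of the 42 passed, 11 higher and 6 lower, or 40.5% beside 51.3% of all genes. Of the 11 for transcription, Mterf2, of the family of mitochondrial termination factors, fell by 1.65 on the log2 scale (14.01, 12.7 and 12.7 CPM at 2 months and 5.04, 4.26 and 3.91 at 18 months; edgeR adjusted p = 0.00179). Tfam, which packages the genome and starts transcription, had a log2 fold change of 0.29 (edgeR adjusted p = 0.0392), and Polrmt, the RNA polymerase, one of −0.16. The 9 genes listed for mitochondrial RNA cleavage, not all of which cut at the tRNAs, had values above 0, from 0.13 to 0.97. Their median was 0.23. By the limits on adjusted p and fold change 0 were called, and 3 of them, Ptcd2, Tbrg4 and Fastkd5, were higher with an edgeR adjusted p below 0.05. Elac2, Prorp, Trmt10c and Hsd17b10, parts of the enzymes that cut the tRNA ends, lay between 0.13 and 0.23 and did not pass the test. Among the 12 genes for stability, polyadenylation and decay the median was 0.08. Pde12, which removes poly(A) tails in mitochondria, had 7.26, 12.7 and 10.1 CPM at 2 months and 26.8, 30.7 and 32.9 at 18 months. It was called higher at 1.53 (edgeR adjusted p = 0.00317). Mtpap, the mitochondrial poly(A) polymerase, had a log2 fold change of 0.34 that did not pass the test. For the 10 genes of tRNA modification the median was −0.20 with 0 called.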

How the data were processed

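Poly(A) RNA of 6 libraries (3 of each age) was sequenced from both ends by the authors, with strand kept by dUTP. The submitters' processing notes name cutadapt 1.9, HISAT2 2.0.4, UMI-tools, StringTie 1.3.4d, DESeq2 and edgeR. The genome build is not given in the sources used here. The deposited table holds counts of each gene, whole numbers that the authors did not normalize, and FPKM values, scaled by length and library. For the 22 mitochondrial genes of up to 5000 counts, the deposited counts equal FPKM times gene length times one constant per library, rounded up (21 of 22 in 18-month replicate 3), and for those above they differ from it by at most 0.0111%. All value columns were used (0 left out).

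Counts were tested with edgeR 4.0.16 (TMM, filterByExpr, quasi-likelihood test) in R 4.3.3 over 20397 genes, without a replicate block, with Benjamini-Hochberg adjustment. Shares and ratios were compared by two-sided exact permutation tests (SciPy 1.17.1). The test was checked on simulated data with far fewer changed genes than were called here. That check does not measure its error rate in these data. Alternatives used limma 3.58.1 on log2(FPKM + 0.1), with a pseudocount of 1 or on TPM, DESeq2 1.42.0, other scalings and filters, and leaving out each library. Without a genome for the planned search, mitochondrial transcripts were compared with GENCODE M21 nuclear transcripts by blastn 2.17.0 (95% identity, 200 bases, or 90%). Adding the counts of chromosome 1 copies and leaving out CT010467.1 were chosen after seeing the data. The members and lists were chosen with earlier results of these data known. All mRNAs, rRNAs and tested tRNAs are named. Of each nuclear list, the most abundant gene and at most 2 called genes of lowest p were eligible, and factors of cleavage, transcription and polyadenylation were named for their role. Protein sequences are not given here.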

Additional observations from a re-analysis of the deposited data

How the results depend on the processing

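Depth limited the tRNAs of few counts, and 3 libraries an age limited every exact test to p = 0.1. Both rRNAs stayed higher and called under every alternative run, and the ratios of rRNA to mRNA and of mRNAs to nuclear subunits kept their direction in all of theirs. Of 612 gene values under alternatives 565 kept direction and call, 31 changed sign and 16 became called. The replicate numbers gave no sign of pairing between the libraries (correlations of deviations 0.02, 0.04 and −0.01), which cannot show that there was none. With the number as a replicate block 2 mitochondrial and 14 nuclear subunit genes were called, beside 29.6% of all genes. There mt-Rnr1 stood at 1.58 and mt-Rnr2 at 1.62. The copies added and CT010467.1 left out gave 2 mitochondrial calls each, beside 36.3% and 36.2% of all genes. For changes below, the cause was not tested.

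Rescaling FPKM to TPM in limma called 6 mitochondrial and 6 nuclear subunit genes, beside 36.3% of all genes (12.3% higher and 24.0% lower). Called mitochondrial genes were the rRNAs, higher, and mt-Ti (−1.15), mt-Tq (−1.50), mt-Tm (−1.08) and mt-Tr (−1.02), lower. The rescaling moved the median of all genes to −0.37. It put the median of the mRNAs at −0.43, of nuclear complexes I to V at 0.12, 0.50, 0.27, 0.39 and 0.41, of transcription factors at −0.33, of cleavage at −0.12, of stability at −0.25 and of tRNA modification at −0.55. It turned mt-Nd1 to −0.19, mt-Co1 to −0.30, mt-Co2 to −0.29, mt-Co3 to −0.30, mt-Atp8 to −0.33, mt-Atp6 to −0.32, mt-Tw to −0.24, mt-Ts1 to −0.34, mt-Tk to −0.20 and mt-Tt to −0.17. As shares of summed FPKM, the log2 ratio of the ages was −0.38 for all mitochondrial genes, −0.42 for mRNAs, −0.27 for tRNAs, −0.32 for complex IV and −0.35 for complex V.

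Limma on log2(FPKM + 0.1) called 6 mitochondrial and 24 nuclear subunit genes, beside 40.0% of all genes (20.3% higher and 19.8% lower). Called mitochondrial genes were the rRNAs, mt-Ta (1.025), mt-Tn (1.06) and mt-Tc (1.0), higher, and mt-Tq (−1.04), lower. This setting gave 0.84 for nuclear complex V, −0.11 for tRNA modification and 0.0013 for mt-Nd2. A pseudocount of 1 gave −0.086 for tRNA modification and 0.0013 for mt-Nd2. Total counts alone gave 0.83 for nuclear complex V and −0.12 for tRNA modification. Without the 100 most abundant genes the values were −0.00047 for mt-Co1, −0.025 for mt-Ts1, −0.026 for mt-Atp8 and −0.0095 for mt-Atp6, and the shares −0.050 for all mitochondrial genes, −0.10 for mRNAs and −0.0092 for complex V. With TMM library sizes the shares were −0.0041 for all and −0.055 for mRNAs.

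Leaving out each library in turn gave 2 to 5 mitochondrial calls, beside 26.4% to 44.6% of all genes. The median ran from −0.17 to 0.11 for the mRNAs, 0.48 to 0.59 for nuclear complex I and −0.20 to 0.12 for transcription factors. The log2 ratio of shares ran from −0.074 to 0.20 for all mitochondrial genes, −0.13 to 0.15 for mRNAs, −0.24 to 0.11 for complex I, −0.0034 to 0.24 for complex IV and −0.022 to 0.23 for complex V, and that of mt-Rnr2 to mt-Rnr1 from −0.060 to 0.15. The share among mRNAs ran from −0.12 to 0.050 for mt-Nd2 and −0.11 to 0.0028 for mt-Nd3. Log2 fold changes ran from −0.26 to 0.11 for mt-Nd2, −0.15 to 0.41 for mt-Tw, −0.065 to 0.16 for mt-Co1, −0.044 to 0.13 for mt-Ts1, −0.0019 to 0.15 for mt-Co2, −0.13 to 0.29 for mt-Tk, −0.10 to 0.16 for mt-Atp8, −0.050 to 0.16 for mt-Atp6, −0.22 to 0.0034 for mt-Nd6 and −0.23 to 0.60 for mt-Tt.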
